A study of Homo sapiens with 6 samples.

Results

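The genes described here are 10 autophagy and mitophagy receptors and their kinases: OPTN, SQSTM1, NBR1, TAX1BP1, CALCOCO2, TBK1, PINK1, BNIP3, BNIP3L and FUNDC1. They were taken by symbol from the 18798 Ensembl genes of an RNA-seq count table, and all 10 were present and had enough counts to be tested. The table covers 6 libraries of U937, an established human line of monocytic origin, grown in medium with serum and selected with geneticin after transduction. Of these, 3 are ΔNSPs libraries, each from an independent clone depleted of CTSG, ELANE and PRTN3 at once. These genes encode cathepsin G, neutrophil elastase and proteinase 3, serine proteases of azurophil granules. The other 3 libraries came from Control lines that carried control plasmids. A clone is grown from few cells, so a library of a clone also carries whatever else distinguishes that clone. The p-values here compare the difference of the groups with the spread among the lines and clones within each group. They cannot separate the depletion from other differences between the clones and the Control lines.

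Selective autophagy begins when a receptor binds a cargo and, by a short motif, the LC3 and GABARAP proteins on a growing autophagosome membrane. OPTN, SQSTM1, NBR1, TAX1BP1 and CALCOCO2 recognise ubiquitin on the cargo, and the kinase TBK1 phosphorylates several of them. On damaged mitochondria PINK1 phosphorylates ubiquitin, which recruits such receptors. BNIP3, BNIP3L and FUNDC1 sit in the outer mitochondrial membrane and bind LC3 without ubiquitin. BNIP3 is a textbook target of the hypoxia-inducible factors, and BNIP3L clears mitochondria from maturing red cells.

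The set was selected on the level of OPTN, and in part of BNIP3, in ΔNSPs against Control, which was known to be lower. Their differences between the groups are therefore given as descriptions, and so are those of the other members. Promoter sequences are shown for these 2 genes because their transcripts were low together. The letters are RefSeq's on GRCh38.p14, the 250 bases upstream of RefSeq's annotated start, and a start was listed for 8 of the 10 members. Gene positions given below come from another annotation, GENCODE. By those positions the OPTN window lies wholly inside the gene and the BNIP3 window partly. OPTN lies on the plus strand of chromosome 10 (chr10:13099832-13100081), and the capitals mark a match to the NF-kB consensus that begins at position -12 from the start. BNIP3 lies on the minus strand (chr10:131981924-131982173), and the capitals mark CACGTG, the E-box, at position -134. That hexamer holds ACGTG, the core of the hypoxia response element, on both strands.
OPTN promoter: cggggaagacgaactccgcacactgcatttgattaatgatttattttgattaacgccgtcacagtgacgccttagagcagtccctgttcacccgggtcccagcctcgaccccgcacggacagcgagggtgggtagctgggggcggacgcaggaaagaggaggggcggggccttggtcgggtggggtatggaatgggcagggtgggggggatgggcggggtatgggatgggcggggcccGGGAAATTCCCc
BNIP3 promoter: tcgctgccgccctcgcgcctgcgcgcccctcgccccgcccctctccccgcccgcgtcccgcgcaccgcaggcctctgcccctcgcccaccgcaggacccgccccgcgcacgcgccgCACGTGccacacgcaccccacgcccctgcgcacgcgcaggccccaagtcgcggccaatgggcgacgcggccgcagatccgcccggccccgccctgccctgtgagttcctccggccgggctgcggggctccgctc

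Searched on both strands in 35116 RefSeq promoters of this length, the NF-kB consensus was found in 9.96%, CACGTG in 6.34%, ACGTG in 18.5% and the AP-1 site TGACTCA in 4.2%. Among the 8 members with a listed start, TBK1 held CACGTG at position -31 and CALCOCO2 held ACGTG at position -61. OPTN has a second listed start close by, and its window holds the same NF-kB match. No match to any of these 4 motifs was present in the listed windows of SQSTM1, NBR1, TAX1BP1 or FUNDC1, which says only that these letters are not in those windows.

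Library totals ran from 11476619 to 13782854 counts. The libraries labelled ΔNSPs had 1903, 1458 and 537 counts of CTSG in clones 1, 2 and 3, against 22264, 34145 and 31769 in Control lines 1, 2 and 3. ELANE and PRTN3 were also lower in every clone than in every Control line. By the means PRTN3 was reduced least, at 12, 835 and 657 counts in the clones, against 6328, 2028 and 2816 in the Control lines (edgeR adjusted p = 0.217, DESeq2 adjusted p = 0.21). Of 10 myeloid markers, 9 reached 1 CPM (counts relative to the scaled library total) in some library, among them CD33, SPI1, CEBPA and LYZ, while CD14 stayed at or below 0.337 CPM. The summed level of the 10 markers was 841 to 1193 CPM in ΔNSPs and 934 to 1030.3 CPM in Control. No T cell or epithelial marker on the list was among the genes in the table. HBB, a globin gene, was at 84.7 to 114 CPM in ΔNSPs and 74.0 to 133 CPM in Control.

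Across the 10 genes, OPTN, BNIP3 and BNIP3L were lower in every ΔNSPs clone than in every Control line, and the groups overlapped for the other 7. The ΔNSPs means were 26.1%, 44.0% and 43.4% of the Control means for these 3 genes. The other 7 had log2 fold changes (ΔNSPs minus Control) between -0.32 and 0.26. Over all 14797 genes tested, 11.7% were lower and 12.2% higher in ΔNSPs without overlap, 23.9% in all. By edgeR's quasi-likelihood test with Benjamini-Hochberg adjustment 0 of the 10 passed an adjusted p of 0.05, where 0.0203% of all genes did, and limma's voom also called 0 of them. DESeq2 called the same 3 genes lower and 0 higher, against 2.07% and 1.91% of all genes it adjusted. An unadjusted p under 0.05 in edgeR was reached by 3 of the 10 and by 17.8% of all genes. Because the members were proposed with this contrast known, nothing is read from these counts. The median log2 fold change was -0.10 over the 10 genes and 0.0023 over all genes tested.

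**Figure D1:**
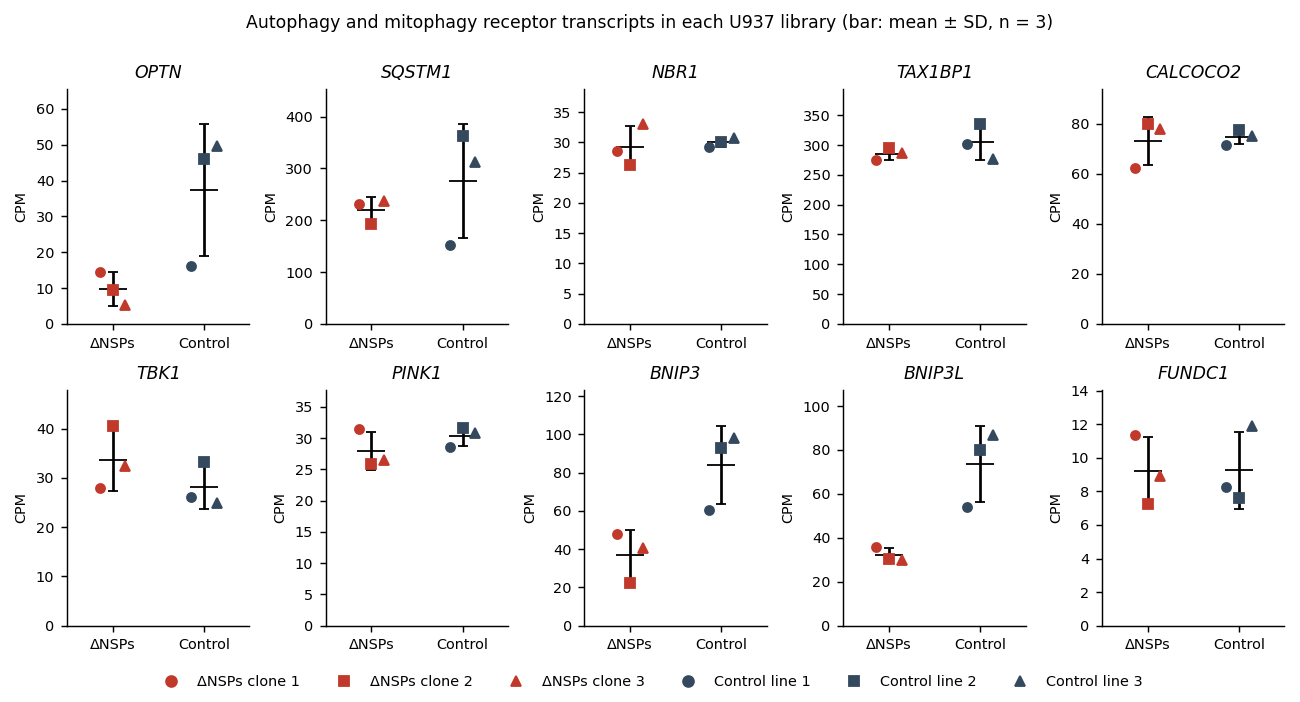
CPM of each gene in each library, with ΔNSPs clones in red and Control lines in dark blue, horizontal bars for the mean and error bars for the SD (n = 3 each). OPTN, BNIP3 and BNIP3L lie lower in all 3 clones than in all 3 Control lines, while the groups overlap for the other 7 genes.

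OPTN (ENSG00000123240, chromosome 10, 13099449 to 13138308 on GRCh38) encodes optineurin, a ubiquitin-binding receptor for damaged mitochondria and bacteria. It stood at 14.5, 9.47 and 5.23 CPM in ΔNSPs clones 1, 2 and 3, against 16.1, 45.9 and 49.7 CPM in Control lines 1, 2 and 3. Control line 1 was close to clone 1 and far below the other Control lines, so the separation of the groups rests on a narrow gap. The means were 9.73 ± 4.64 CPM in ΔNSPs and 37.2 ± 18.4 CPM in Control (SD, n = 3 each). The log2 fold change was -1.93 (SE 0.47; edgeR adjusted p = 0.171, DESeq2 adjusted p = 0.0467). OPTN had 62 counts in clone 3, its lowest library, where counting alone gives an error of 12.7%. In bulk RNA, fewer transcribing cells and less RNA per cell cannot be told apart.

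The clones also differed among themselves. OPTN in the highest clone was 2.77 times that in the lowest clone, the widest spread within ΔNSPs of the 10 genes, and the 3.09-fold range among the Control lines was also the widest. BNIP3 was next within ΔNSPs at 2.15 times, while TAX1BP1 ranged over 1.07 times. Leaving out clone 1 took OPTN past the edgeR threshold (log2 fold change -2.34, adjusted p = 0.0406), a fit in which 3.13% of all genes were called lower, and leaving out any other library did not.

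SQSTM1 (ENSG00000161011, chromosome 5, 179806398 to 179838078) encodes p62, which gathers ubiquitinated protein into condensates and is itself degraded by autophagy. It was at 232, 192 and 237 CPM in ΔNSPs clones 1, 2 and 3, against 152, 362 and 312 CPM in the Control lines 1, 2 and 3. Every clone lay between Control line 1 and the other Control lines. The log2 fold change was -0.32 (SE 0.28; edgeR adjusted p = 0.576), and the difference was smaller than the spread of the Control lines, 275 ± 110 CPM. Without Control line 1 the log2 fold change was -0.61 (edgeR adjusted p = 0.16). SQSTM1 overlaps MGAT4B and MRNIP on the opposite strand, and the strand setting of the counting is not given in the sources used here.

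NBR1 (ENSG00000188554, chromosome 17), which acts with p62 in aggregate clearance, was at 28.6, 26.2 and 33.0 CPM in ΔNSPs clones, against 29.2, 30.1 and 30.7 CPM in Control lines. TAX1BP1 (ENSG00000106052, chromosome 7), a receptor that brings the autophagy initiation machinery to aggregates, was at 275, 295 and 286 CPM in ΔNSPs clones, against 302, 335 and 277 CPM in Control lines. CALCOCO2 (ENSG00000136436, chromosome 17), which encodes NDP52, a receptor for invading bacteria and mitochondria, was at 62.2, 79.7 and 77.8 CPM in ΔNSPs clones, against 71.6, 77.5 and 75.1 CPM in Control lines. Each of these 3 genes differed between groups by less than the spread of the libraries. Their log2 fold changes were -0.037 for NBR1 (SE 0.12), -0.091 for TAX1BP1 (SE 0.10) and -0.030 for CALCOCO2 (SE 0.12), with edgeR adjusted p of 0.898, 0.669 and 0.917.

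**Figure D2:**
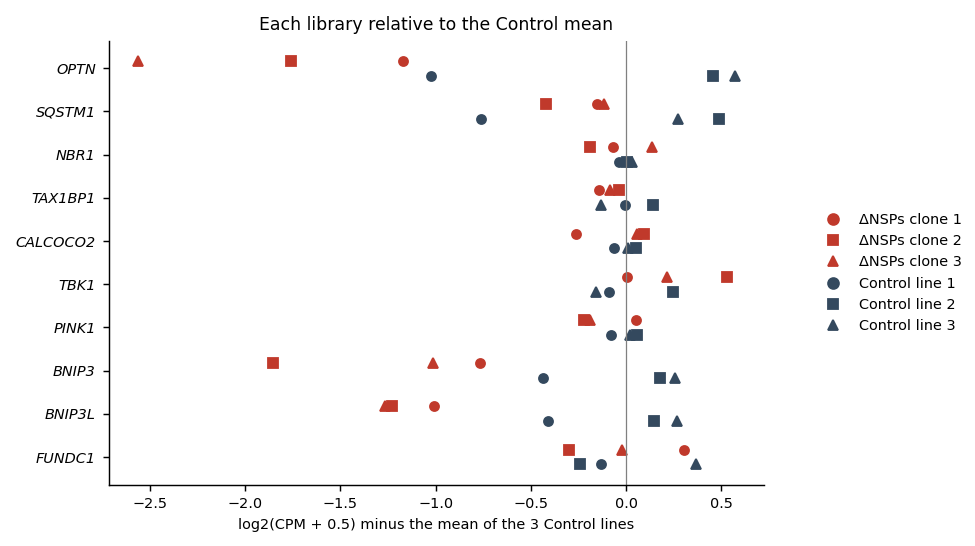
Each library's log2(CPM + 0.5) minus the mean of the 3 Control lines, by gene, with ΔNSPs clones in red above the Control lines in dark blue. For OPTN the values were -1.17, -1.76 and -2.56 in ΔNSPs clones 1, 2 and 3, and Control line 1 stood at -1.03.

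Scaled by the annotated exon length (RPKM), the ubiquitin-binding receptors formed a pool led by TAX1BP1 and SQSTM1, in which OPTN was a small part. In ΔNSPs the mean levels were 31.2 ± 1.10 RPKM for TAX1BP1 and 28.8 ± 3.22 RPKM for SQSTM1, which did not differ beyond their spread. CALCOCO2 followed at 8.79 ± 1.15 RPKM, then NBR1 at 3.48 ± 0.407 RPKM and OPTN at 1.89 ± 0.902 RPKM. In Control the order was SQSTM1 at 35.9 ± 14.3 RPKM, TAX1BP1 at 33.2 ± 3.16, CALCOCO2 at 8.97 ± 0.360, OPTN at 7.25 ± 3.58 and NBR1 at 3.57 ± 0.0888 RPKM. OPTN was the last of the 10 genes in ΔNSPs by this measure and the sixth in Control, where it lay within the spread of its neighbours.

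The summed level of the 5 receptors was 74.0, 71.9 and 76.6 RPKM in ΔNSPs clones 1, 2 and 3, against 67.9, 106 and 93.3 RPKM in Control lines 1, 2 and 3. The clones lay above Control line 1 and below the other Control lines. OPTN made up 3.81%, 2.57% and 1.33% of that sum in the clones, against 4.61%, 8.46% and 10.4% in the Control lines. The rest of the pool was shared in similar parts: TAX1BP1 held 42.1 ± 2.39% in ΔNSPs and 38.5 ± 8.72% in Control, and SQSTM1 held 38.8 ± 3.35% in ΔNSPs and 39.2 ± 8.70% in Control. Exon lengths came from GENCODE 29 and count all annotated exons of a gene, so levels between genes depend on that annotation.

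**Figure D3:**
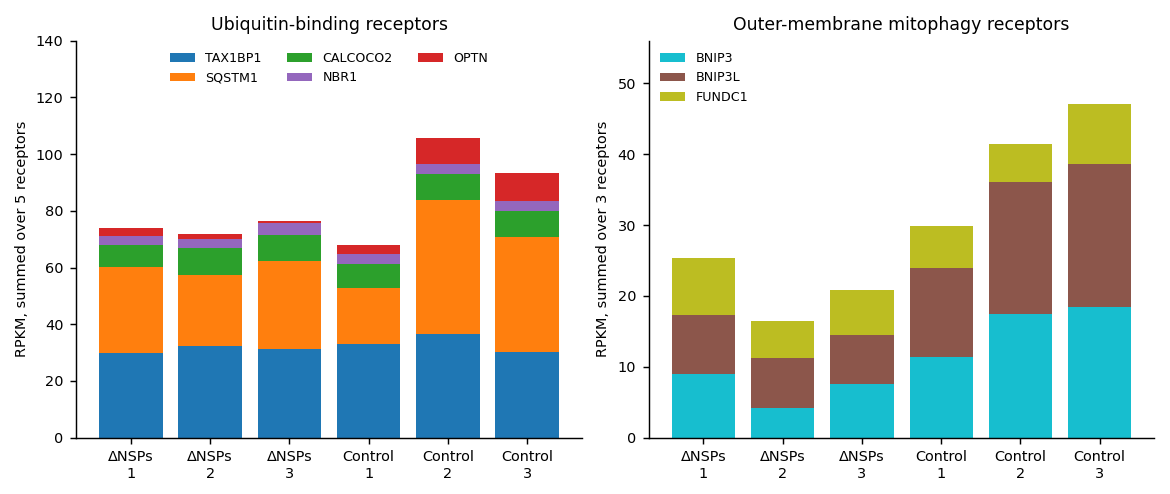
RPKM of the 5 ubiquitin-binding receptors (left) and of the 3 outer-membrane receptors (right), stacked for each library. OPTN is the thinnest layer in all 3 clones, and BNIP3 and BNIP3L together reach 11.3 to 17.3 RPKM in ΔNSPs clones, against 23.9 to 38.6 RPKM in Control lines.

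The kinases differed between groups by less than the spread of the libraries. TBK1 (ENSG00000183735, chromosome 12), the kinase of OPTN and of the interferon regulatory factor IRF3, was at 28.0, 40.5 and 32.5 CPM in ΔNSPs clones 1, 2 and 3, against 26.2, 33.2 and 25.0 CPM in Control lines. It was the member with a positive log2 fold change, 0.26 (SE 0.17; edgeR adjusted p = 0.463), and clone 2 was highest. The ratio of TBK1 to OPTN, in RPKM, was 2.08, 4.61 and 6.70 in the clones, against 1.75, 0.781 and 0.542 in the Control lines. Within ΔNSPs the highest library was 1.45 times the lowest for TBK1 and 2.77 times for OPTN. PINK1 (ENSG00000158828, chromosome 1), the mitochondrial kinase that starts ubiquitin-dependent mitophagy, was at 31.5, 25.9 and 26.6 CPM in ΔNSPs clones, against 28.6, 31.6 and 30.8 CPM in Control lines (log2 fold change -0.12, SE 0.12; edgeR adjusted p = 0.644). PINK1 overlaps its antisense gene PINK1-AS, which had 2096 counts over the 6 libraries, and reads of the pair may not have been told apart.

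BNIP3 (ENSG00000176171, chromosome 10, 131966455 to 131982013) was at 47.9, 22.3 and 40.4 CPM in ΔNSPs clones 1, 2 and 3, against 60.4, 93.0 and 98.1 CPM in Control lines 1, 2 and 3. Clone 2 was lowest, and clone 1 came nearest to Control line 1. The means were 36.9 ± 13.2 CPM in ΔNSPs and 83.8 ± 20.5 CPM in Control, which is -1.19 on the log2 scale (SE 0.29; edgeR adjusted p = 0.171, DESeq2 adjusted p = 0.00287). The annotation names 39 processed copies of BNIP3 elsewhere in the genome, 1 of them in the table, and reads shared with these copies make the counts less certain.

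BNIP3L (ENSG00000104765, chromosome 8, 26382898 to 26505636), also called NIX, was at 35.6, 30.5 and 29.8 CPM in ΔNSPs clones 1, 2 and 3, against 54.2, 79.9 and 86.8 CPM in Control lines 1, 2 and 3. The clones lay close together and well below the lowest Control line, and the mean was 43.4% of the Control mean. The log2 fold change was -1.20 (SE 0.18; edgeR adjusted p = 0.145, DESeq2 adjusted p = 2.25e-06). BNIP3L passed in edgeR without clone 1 (adjusted p = 0.0207) and without Control line 1 (0.028), where 3.13% and 0.125% of all genes were called lower, and BNIP3 passed without clone 1 (0.0365).

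FUNDC1 (ENSG00000069509, chromosome X), a receptor whose binding to LC3 is set by its phosphorylation, was at 11.4, 7.28 and 8.94 CPM in ΔNSPs clones, against 8.27, 7.62 and 11.9 CPM in Control lines. The groups overlapped, with a difference on the log2 scale of -0.0080 (SE 0.25; edgeR adjusted p = 0.989). FUNDC1 had 96 to 159 counts per library, so counting error alone was 7.93% to 10.2%. Together, BNIP3 and BNIP3L summed to 17.3, 11.3 and 14.5 RPKM in clones 1, 2 and 3, against 23.9, 36.0 and 38.6 RPKM in the Control lines. The BNIP3 to BNIP3L ratio in RPKM was 1.09, 0.592 and 1.10 in the clones, against 0.902, 0.942 and 0.914 in the Control lines, so clone 2 departed from the other libraries by its lower BNIP3.

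Control line 1 stood below both other Control lines for 7 of the 10 genes, a position it held in 36.7% of all genes tested. It had 33.7% of the mean of the other Control lines for OPTN, 45.1% for SQSTM1, 63.2% for BNIP3 and 65.0% for BNIP3L. For NBR1, TAX1BP1 and CALCOCO2 these shares were 96.1%, 98.7% and 93.8%. Set against Control line 1 alone, the ΔNSPs mean was 60.4% for OPTN, 61.0% for BNIP3 and 59.0% for BNIP3L, and 145% for SQSTM1. The genes that were lower in the clones thus also varied among lines that carried no depletion, and what sets Control line 1 apart was not tested.

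The position of the genes was examined because clones can carry gains and losses of chromosome segments. Levels are given as log2 differences from the Control mean. For OPTN, the 9 expressed genes within 1 Mb stood at a median of 0.29, 0.18 and 0.25 in clones 1, 2 and 3. OPTN itself was at -1.17, -1.76 and -2.56. Of these 9 genes 2 were lower in every clone than in every Control line, DHTKD1 (-0.58, -0.65 and -1.02 in the clones) and PHYH (-0.49, -0.34 and -0.57). Over all genes tested 11.7% were lower in this way, and with so few neighbours nothing is read from such counts. The part of a chromosome segment in the level of OPTN was not tested. For BNIP3, near the end of the long arm of chromosome 10, the 5 expressed neighbours had medians of 0.11, -0.82 and -0.44, beside -0.77, -1.86 and -1.01 for BNIP3. PPP2R2D, the gene next to BNIP3, was at 80.7, 44.3 and 50.3 CPM in the clones, against 63.3, 83.9 and 81.8 CPM in the Control lines. C10orf91, another of the 5, stood above the Control mean, at log2 differences of 0.66, 0.072 and 0.59 in the clones. Of the 5 neighbours, 0 were lower in every clone than in every Control line, where 11.7% of all genes tested were. The median of the neighbours was thus below the Control mean in clones 2 and 3 and above it in clone 1, and BNIP3 was lower than that median in all 3 clones. The part of a chromosome segment in the level of BNIP3 was not tested.

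For BNIP3L the 7 expressed neighbours had medians of 0.073, -0.099 and 0.20 in clones 1, 2 and 3, beside -1.01, -1.23 and -1.26 for BNIP3L. Over all 344 expressed genes of chromosome 8 the median was -0.59 in clone 2, against -0.034 and 0.011 in clones 1 and 3. The part of the chromosome 8 level in that of BNIP3L in clone 2 was not tested. Of the 7 neighbours of BNIP3L, 0 were lower in every clone than in every Control line. A 3 Mb window gave medians in the clones of 0.19, 0.18 and 0.14 for OPTN and 0.14, -0.82 and -0.15 for BNIP3. For BNIP3L they were -0.081, -0.46 and -0.075. In that window 7 of 20 neighbours of BNIP3L were lower without overlap, 2 of 21 for OPTN and 1 of 13 for BNIP3. Among all genes tested 11.7% were lower in this way, and the part of nearby genes in the level of BNIP3L was not tested.

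**Figure D4:**
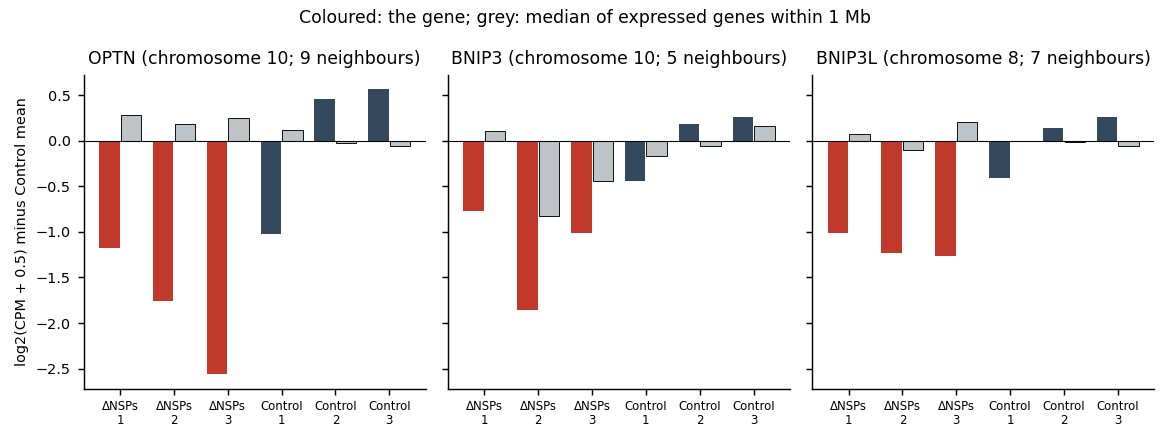
Log2(CPM + 0.5) minus the Control mean for OPTN, BNIP3 and BNIP3L (red for ΔNSPs clones, dark blue for Control lines) beside the median of the expressed genes within 1 Mb (grey). The grey bars lie below 0 beside BNIP3 in clones 2 and 3, at -0.82 and -0.44, and lie between -0.099 and 0.29 in the clones for OPTN and BNIP3L.

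Across the 6 libraries, the log2 CPM of OPTN followed that of BNIP3L (Pearson r = 0.95) and of BNIP3 (0.84), and BNIP3 followed BNIP3L (0.92). PINK1 (0.79) and SQSTM1 (0.63) followed OPTN less closely, and TBK1 ran the other way (-0.43). These values describe 6 points that share the 2 groups and the difference of Control line 1. Among 9877 other genes that averaged 10 CPM or more, those most like OPTN were RNF144A (0.999), PLOD1 (0.992), AC007298.1 (0.990), TMEM170B (0.988) and NFE2L3 (0.987). PLOD1, a lysyl hydroxylase of collagen, was at 149, 107 and 73.3 CPM in ΔNSPs clones, against 154, 246 and 291 CPM in Control lines, the order OPTN showed. Those most like BNIP3 were SARAF (0.995), TMCO6 (0.993), LIX1L (0.993), MFAP4 (0.991) and MPC2 (0.991).

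Other genes were described from 8 lists with 161 genes, of which 151 were tested. Of these, 5 lists hold autophagy and mitophagy genes and partners of TBK1 or OPTN, and the others hold hypoxia-responsive genes, transcription factors of autophagy genes, and KEAP1 with NRF2 targets. The edgeR threshold was passed by 0 of the 151, and at an unadjusted p under 0.05 there were 29 lower and 9 higher, where 17.8% of all genes lay under that p in either direction. DESeq2 called 9 lower and 2 higher, where it called 2.07% and 1.91% of all genes. The hypoxia and NRF2 lists hold 5 of the 9 lower calls, and the transcription factors both higher calls. All lists were chosen with earlier results of these data known, so their counts are descriptions only.

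The LC3 and GABARAP family, to which the receptors bind, had 0 of 5 tested members past the threshold in edgeR or DESeq2 and 1 that was lower at an unadjusted p under 0.05. Its median log2 fold change was 0.0035. DESeq2 called 2.07% of all genes lower and 1.91% higher, and 17.8% had an unadjusted p under 0.05 in either direction. MAP1LC3B was at 45.7, 42.9 and 42.0 CPM in ΔNSPs clones, against 41.4, 45.1 and 43.7 CPM in Control lines. GABARAPL1 had the most negative value, -1.16 (SE 0.49; edgeR adjusted p = 0.276), at 2.64, 1.21 and 0.759 CPM in ΔNSPs clones, against 2.05, 4.14 and 4.25 CPM in Control lines.

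Of 33 tested genes of autophagy initiation and lipid conjugation, 0 passed in edgeR and 1 was lower in DESeq2, with a median log2 fold change of 0.0064. At an unadjusted p under 0.05 in edgeR, 4 were higher and 3 lower, and without overlap 6 were higher and 4 lower. By comparison, DESeq2 called 2.07% of all genes lower, and 17.8% had an unadjusted p under 0.05 in either direction. Without overlap, 12.2% of all genes tested were higher and 11.7% lower. The DESeq2 call was ATG16L2, a relative of the conjugation scaffold ATG16L1, at 25.6, 30.5 and 33.1 CPM in ΔNSPs clones, against 41.7, 42.4 and 52.8 CPM in Control lines (log2 fold change -0.62, SE 0.15; DESeq2 adjusted p = 0.0205). ATG4D, a protease that processes LC3 relatives, had the most positive value, 0.46 (SE 0.15; edgeR adjusted p = 0.209). ATG10 had the highest counts of this list, at 563 to 672 CPM in ΔNSPs and 568 to 761 CPM in Control, but it overlaps the ribosomal protein gene RPS23 on the opposite strand and its counts are uncertain.

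Among 16 other cargo receptors and adaptors, 0 passed in edgeR and 1 was lower in DESeq2, and the median log2 fold change was -0.10. At an unadjusted p under 0.05 in edgeR, 2 were lower and 0 higher. The shares of all genes were 2.07% lower and 1.91% higher in DESeq2, and 17.8% under that p in either direction. CALCOCO1, a relative of CALCOCO2 that serves the endoplasmic reticulum, was the DESeq2 call, at 8.85, 8.19 and 9.45 CPM in ΔNSPs clones, against 11.7, 18.4 and 23.1 CPM in Control lines (log2 fold change -1.0, SE 0.25; DESeq2 adjusted p = 0.0129). NCOA4, the receptor for ferritin, was at 199, 362 and 319 CPM in ΔNSPs clones, against 253, 261 and 225 CPM in Control lines. Of 19 partners of TBK1 or OPTN, 0 passed in edgeR or DESeq2, with 1 gene each way at an unadjusted p under 0.05 and a median of 0.028. On the log2 scale TBKBP1, an adaptor of TBK1, differed by 0.38 (SE 0.12), and TRAF3, a ubiquitin ligase upstream of TBK1, by -0.39 (SE 0.17).

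Of 29 other mitophagy genes, 0 passed in edgeR, 2 were lower in DESeq2 and 6 were lower at an unadjusted p under 0.05, with a median of -0.080. Over all genes, 2.07% were lower in DESeq2 and 17.8% had an unadjusted p under 0.05 in either direction. NIPSNAP1, a matrix protein that marks damaged mitochondria for receptors such as NDP52, was at 48.3, 43.8 and 43.2 CPM in ΔNSPs clones, against 81.3, 71.9 and 78.3 CPM in Control lines (log2 fold change -0.77, SE 0.10; edgeR adjusted p = 0.145, DESeq2 adjusted p = 1e-05). The groups were far apart for NIPSNAP1, and Control line 1 was the highest Control line there, unlike for OPTN. USP30, a mitochondrial deubiquitinase that opposes mitophagy, was at 7.5, 5.46 and 5.73 CPM in ΔNSPs clones, against 8.95, 11.8 and 12.9 CPM in Control lines (DESeq2 adjusted p = 0.0378). RAB7A had the highest level of the list and the most positive value, 0.29 (SE 0.16).

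Genes that respond to hypoxia were examined because BNIP3 belongs to them. Of 26 tested, 0 passed in edgeR, 4 were lower in DESeq2, and 8 were lower and 1 higher without overlap between the groups. Over all genes 2.07% were lower in DESeq2, and 11.7% were lower and 12.2% higher without overlap. Log2 fold changes were negative for 20 of the 26, with a median of -0.21. This list was taken up because of BNIP3, with earlier results of these data known, so nothing is read from its counts. The DESeq2 calls were P4HA1, ALDOC, PFKFB4 and DDIT4, with log2 fold changes of -2.04, -1.80, -1.23 and -1.06. PFKFB4, a regulator of glycolysis, was at 11, 12.6 and 10.0 CPM in ΔNSPs clones, against 13.5, 28.7 and 36.8 CPM in Control lines, with Control line 1 close to the clones as for OPTN. DDIT4, an inhibitor of mTORC1, was at 27.9, 17.6 and 17.1 CPM in ΔNSPs clones, against 35.7, 38.7 and 56.4 CPM in Control lines. The glucose transporter genes had log2 fold changes above 0, of 0.53 for SLC2A1 (SE 0.16; edgeR adjusted p = 0.182) and 0.56 for SLC2A3 (SE 0.24; edgeR adjusted p = 0.276). SLC2A1, the gene that was higher without overlap, was at 89.8, 136 and 113 CPM in ΔNSPs clones, against 84.6, 74.4 and 74.8 CPM in Control lines. SLC2A3 was at 20.6, 35.2 and 40.7 CPM in ΔNSPs clones, against 23.1, 19.2 and 23.0 CPM in Control lines. Without clone 1 edgeR called both transporter genes, and of this list also ALDOC, P4HA1 and DDIT4. That fit called 457 genes higher and 471 lower among 15050 tested. HIF1A itself was at 40.9, 47.4 and 42.8 CPM in ΔNSPs clones, against 48.2, 47.6 and 44.2 CPM in Control lines.

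EGLN1, which encodes the main prolyl hydroxylase that marks HIF1A for degradation, divided the libraries in another way. It was at 0.428, 33.3 and 32.9 CPM in ΔNSPs clones 1, 2 and 3, against 14.5, 1.23 and 1.82 CPM in Control lines 1, 2 and 3. Clone 1 and Control lines 2 and 3 were thus low, and the groups overlapped (log2 fold change 1.93, SE 1.25; edgeR adjusted p = 0.444). In the same order, BNIP3 was at 47.9, 22.3 and 40.4 CPM in the clones, against 60.4, 93.0 and 98.1 CPM in the Control lines. Clone 1 was lower than every Control line in both genes. A part of EGLN1 in the level of BNIP3 was not tested.

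**Figure D5:**
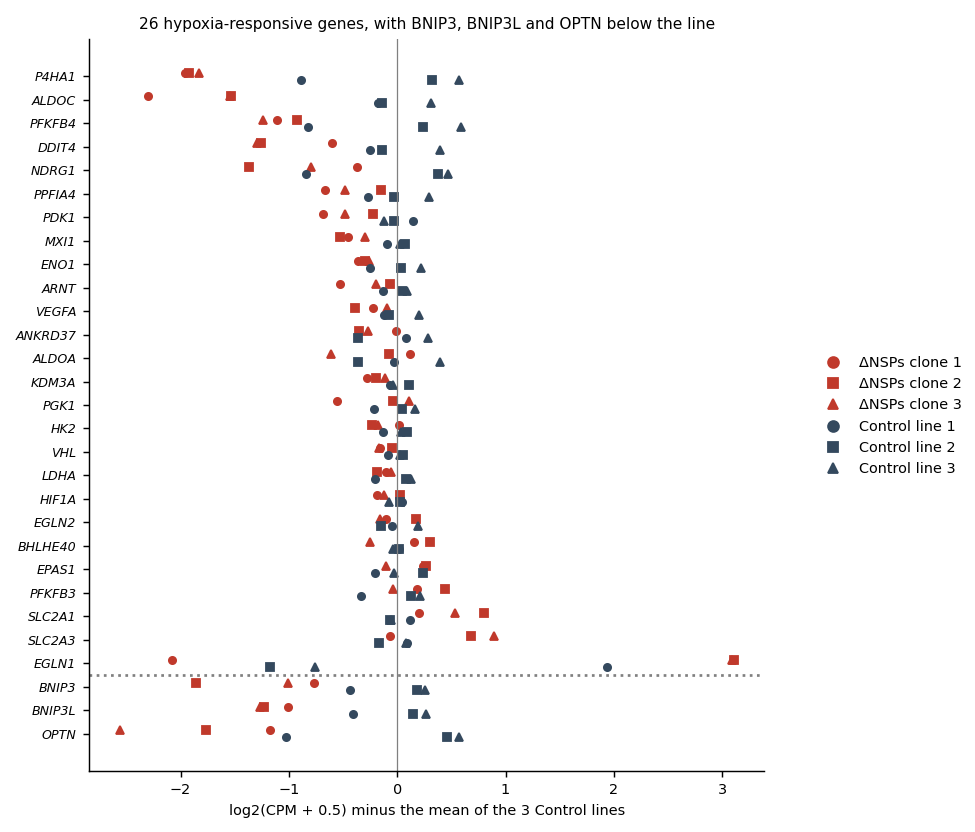
Each library's log2(CPM + 0.5) minus the Control mean for 26 hypoxia-responsive genes, ordered by log2 fold change, with BNIP3, BNIP3L and OPTN below the dotted line. ΔNSPs clones (red) lie left of the Control lines (dark blue) from P4HA1 to DDIT4, and EGLN1 splits the libraries across the groups.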

How the data were processed

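RNA was measured in 6 libraries, 3 ΔNSPs and 3 Control, grouped by the sample titles. The values deposited by the authors are raw gene counts, not normalized. The submitters' processing notes name HISAT2 2.0.0, HTSeq 0.11.1, SAMtools 1.5.9, FastQC and the GRCh38.p12 build. Annotation release, strand setting and filters were not given in the sources used here, and each gene in the table has at least 10 counts over the libraries. Symbols, positions and exon lengths came from GENCODE 29 (18771 of 18798 genes matched).

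Counts were tested in edgeR 4.0.16 under R 4.3.3 by quasi-likelihood fits after TMM and filterByExpr, Benjamini-Hochberg adjusted over 14797 genes, two-sided, at 0.05. CPM are counts over TMM-scaled totals, and RPKM divide these by exon kilobases. DESeq2 1.42.0 and limma 3.58.1 (voom with quality weights) were alternatives, with other size factors and filters, thinning, a replicate block and each library left out. The fits were tested on simulated data. Neighbours had a mean of at least 8 CPM, and log2 levels used a pseudocount of 0.5 CPM. The level of 3 counts, 0.214 to 0.26 CPM, is the floor and covers counting error only. No 2 libraries of the same group agreed within sampling noise (chi-square per degree of freedom of at least 7.62). Pairs across the groups were not compared in this way.

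Members and lists were chosen with earlier results of these data known. Named genes of a list are its edgeR calls or else its most highly expressed member and largest log2 fold changes each way at a mean of at least 2 CPM, and its DESeq2 calls. A gene that this rule names is not reported here. HIF1A, SLC2A1, SLC2A3, DHTKD1, PHYH, C10orf91 and PPP2R2D were named after their values were seen.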

Additional observations from a re-analysis of the deposited data

How the results depend on the processing

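OPTN, BNIP3 and BNIP3L kept a negative log2 fold change under all 14 alternatives run, from -2.34 to -1.63, -1.43 to -0.92 and -1.38 to -1.07 when each library was left out. Their edgeR adjusted p ran from 0.0207 to 0.532 there. The count of members past the threshold was 0 with all libraries, 3 in DESeq2, and 0 to 3 with a library left out. For the 151 list genes it was 0, against 11 in DESeq2 and 0 to 8 with a library left out. Over all genes edgeR called 3, against 515 in DESeq2 and 0 to 928 with a library left out, the most without ΔNSPs clone 1. The direction of near-zero members turned: with a library left out NBR1 lay at -0.13 to 0.038, CALCOCO2 at -0.094 to 0.068 and FUNDC1 at -0.20 to 0.21, with FUNDC1 at 0.21, 0.14 and 0.013 without Control line 3, clone 2 and clone 3. Same-numbered libraries deviated from their group means with correlations of -0.44, -0.16 and -0.15. Deviations within a group sum to 0, so these values cannot decide whether the numbers pair lines and clones. Across numbers, clone 1 had 0.28 and 0.30 with Control lines 2 and 3. Control line 1 had 0.27 and 0.23 with clones 2 and 3. Control line 3 with clone 2 had -0.19, and Control line 2 with clone 3 had -0.15. What the deviations share across the groups was not tested. With the replicate number as a block edgeR called 0 genes (1779 at an unadjusted p under 0.05). The cause of these changes was not tested.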

Other observations

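Transcription factors of autophagy genes and targets of the NRF2 pathway, to which p62 is tied through KEAP1, were also measured. Of 11 transcription factors tested, 0 passed in edgeR and 2 were higher in DESeq2, where 1.91% of all genes were, with a median log2 fold change of -0.075. CEBPB was at 81.5, 213 and 174 CPM in ΔNSPs clones 1, 2 and 3, against 64.4, 75.0 and 75.8 CPM in Control lines (DESeq2 adjusted p = 0.00637). DDIT3, a stress-induced factor downstream of ATF4, was at 20.5, 19.2 and 23.4 CPM in ΔNSPs clones, against 15.3, 12.2 and 13.2 CPM in Control lines (DESeq2 adjusted p = 0.0379). On the log2 scale ATF4 itself differed by 0.29 (SE 0.16) and FOXO1 by -0.68 (SE 0.26; edgeR adjusted p = 0.238).

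Of 12 tested genes of the KEAP1 and NRF2 list, 0 passed in edgeR, 1 was lower in DESeq2, and 5 were lower at an unadjusted p under 0.05. The list had a median of -0.40 on the log2 scale. Over all genes, 2.07% were lower in DESeq2 and 17.8% had an unadjusted p under 0.05 in either direction. SLC7A11, the cystine transporter, was the DESeq2 call, at 16.4, 16.1 and 16.9 CPM in ΔNSPs clones, against 21.4, 54.5 and 35.7 CPM in Control lines (adjusted p = 0.00542). HMOX1, heme oxygenase, was at 31.3, 17.2 and 7.17 CPM in ΔNSPs clones, against 7.84, 65.1 and 62.4 CPM in Control lines. FTL, ferritin light chain, was at 4521, 2905 and 3505 CPM in ΔNSPs clones, against 3646, 6675 and 6809 CPM in Control lines. In HMOX1, FTL and SQSTM1 alike, Control line 1 was the lowest Control line and the groups overlapped. KEAP1 had a log2 fold change of 0.27 (SE 0.12).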
